A study of Mus musculus with 18 samples.

Results

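The transcripts described here are 10 messages that mark Purkinje cells, the large output neurons of the cerebellar cortex: Pcp2, Gng13, Rgs8, Ppp1r17, Calb1, Doc2b, Stac, Slc1a6, Dner and Icmt. They were chosen by name, as genes enriched in these cells that are neither transcription factors nor parts of the core calcium signalling pathway. The choice was made with earlier results of these data known, so the shares of all genes given below serve only as a scale. All 10 were found among the 22783 genes measured. RNA was sequenced from dissected whole cerebella of FVB mice, and each value is an FPKM, the number of fragments assigned to a gene scaled to transcript length and to library size. The tested genotype, ATXN1[30Q]D776/Cck-/-, carries a transgene for human ataxin-1 with aspartate in place of the serine whose phosphorylation is linked to toxicity, and its libraries are called transgenic. The genotype it was set against, Cck-/-, carries no such transgene, and both are labelled Cck-/-, for Cck, the gene of the neuropeptide cholecystokinin. Each genotype was sampled at postnatal weeks 5, 12 and 28 with 3 libraries per age, 18 libraries in all. As background, mice of this transgene name are known to express ataxin-1 from the Pcp2 regulatory region, which confines it largely to Purkinje cells; the labels do not state the promoter. Every library compared is labelled Cck-/-, so no group labelled as wild type for Cck entered a comparison.

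Purkinje cells receive excitatory input from parallel and climbing fibres and send the only output of the cerebellar cortex, as inhibition onto the deep nuclei. Their metabotropic glutamate and GABA-B receptors signal through heterotrimeric G proteins, whose beta-gamma pairs are anchored by a prenyl group, and several of the genes described here act on that machinery. Loss of messages that Purkinje cells otherwise make in abundance is a known feature of mouse models of spinocerebellar ataxia type 1. In RNA from whole cerebellum, fewer Purkinje cells and less of a message per Purkinje cell cannot be told apart.

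The promoters of 7 of the 10 genes were available, in 13 windows, from RefSeq on build GRCm38.p6, the mm10 assembly. Pcp2 is shown because its message was near the level of Cck-/- cerebella until week 12, Gng13 because it was already lower at week 5, and Dner because its decrease at week 28 was the smallest of the 10. Capitals mark AGGTCA, the half-site bound by the orphan receptor RORα, which Purkinje cells need in development; it was searched on both strands (reverse complement TGACCT). The sequences read from 5′ to 3′ on the strand of the gene and end at the base before an annotated start site. The Pcp2 stretch lies at chr8:3625548-3625577 (minus strand), the Dner promoter at chr1:84696222-84696471 (minus strand) and the Gng13 promoter at chr17:25716922-25717171 (plus strand).
Pcp2: cttttaaaaggccttctcAGGTCAgagacc
Dner: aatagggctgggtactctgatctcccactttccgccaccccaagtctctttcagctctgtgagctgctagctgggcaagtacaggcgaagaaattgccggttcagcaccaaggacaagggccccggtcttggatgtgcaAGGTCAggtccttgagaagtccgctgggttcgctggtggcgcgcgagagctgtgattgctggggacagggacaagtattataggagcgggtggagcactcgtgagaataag
Gng13: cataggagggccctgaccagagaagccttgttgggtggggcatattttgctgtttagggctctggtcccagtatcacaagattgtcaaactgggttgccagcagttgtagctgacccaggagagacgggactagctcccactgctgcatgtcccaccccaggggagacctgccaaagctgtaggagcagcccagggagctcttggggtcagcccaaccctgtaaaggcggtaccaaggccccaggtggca
AGGTCA began 12 bases before the start site of Pcp2 and 111 bases before that of Dner, and the 250 bases shown for Gng13 held none. It occurred in 5 of the 13 windows, which belong to Pcp2, Dner and Rgs8, and in 14% of 32851 RefSeq windows of 250 bases. Windows of Pcp2 overlap, and its AGGTCA 12 bases before the start site is counted again in another Pcp2 window. Capicua, a repressor that partners ataxin-1, binds a short core, which was searched on both strands in 4 spellings. GAATGAA is in 3.64% of all windows, GAATGGA in 3.62%, CAATGAA in 3.36% and CAATGGA in 2.95%. Any of them was found in 3 of the 13 windows, all of Pcp2, whose windows overlap each other, against 12.8% of all windows. The same CAATGGA is counted in more than 1 of these windows. The letters TATAAA (reverse complement TTTATA) were found in 1 window, of Pcp2, against 12.4%. These matches describe the letters in the windows and say nothing about binding.

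The libraries were of like scale, with FPKM sums from 389248 to 441509, and correlations of log2 values ran from 0.984 to 0.996 within groups and from 0.965 to 0.993 between them. The depth is unknown. In 389 low genes the value taken as that of 1 read differed at most 1.40-fold between libraries. Genes were kept for this only where their values lay close together, which limits the ratio in advance. Relative to the median library, that value was 0.807 to 0.890 in week 28 libraries of both genotypes and 0.990 to 1.13 in the younger ones. Whether the Cck alleles are as labelled cannot be read from gene-level FPKM: Cck was above 0 in every library and stood at 98.1 ± 15.6, 14.8 ± 2.21 and 6.51 ± 1.76 FPKM in transgenic cerebella of weeks 5, 12 and 28, against 20.8 ± 4.51, 13.9 ± 2.74 and 4.97 ± 2.06 in Cck-/- cerebella (mean ± SD, n = 3 each). At week 5 it was higher in transgenic cerebella by 2.19 on the log2 scale (SE 0.23, adjusted p = 5.82e-05, limma), so at that age this Cck level and the transgene cannot be told apart. Mouse Atxn1 was not called by limma at any age (adjusted p from 0.556 to 0.895, with 0 of 3 unadjusted p under 0.05), and the human transgene's own reads were not counted here. Choroid plexus markers, from the tissue that secretes cerebrospinal fluid, were low in transgenic week 5 replicates 1 and 2 and in transgenic week 28 replicate 3 (mean log2 level of 1.40 to 1.77, against 3.15 to 4.82 in the others). Xist and Y-linked transcripts were both detected in transgenic week 5 replicate 1, week 12 replicate 2 and week 28 replicate 1. Of 8 brainstem and 8 forebrain markers, 6 and 7 stayed under 1 FPKM in every library.

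**Figure D1:**
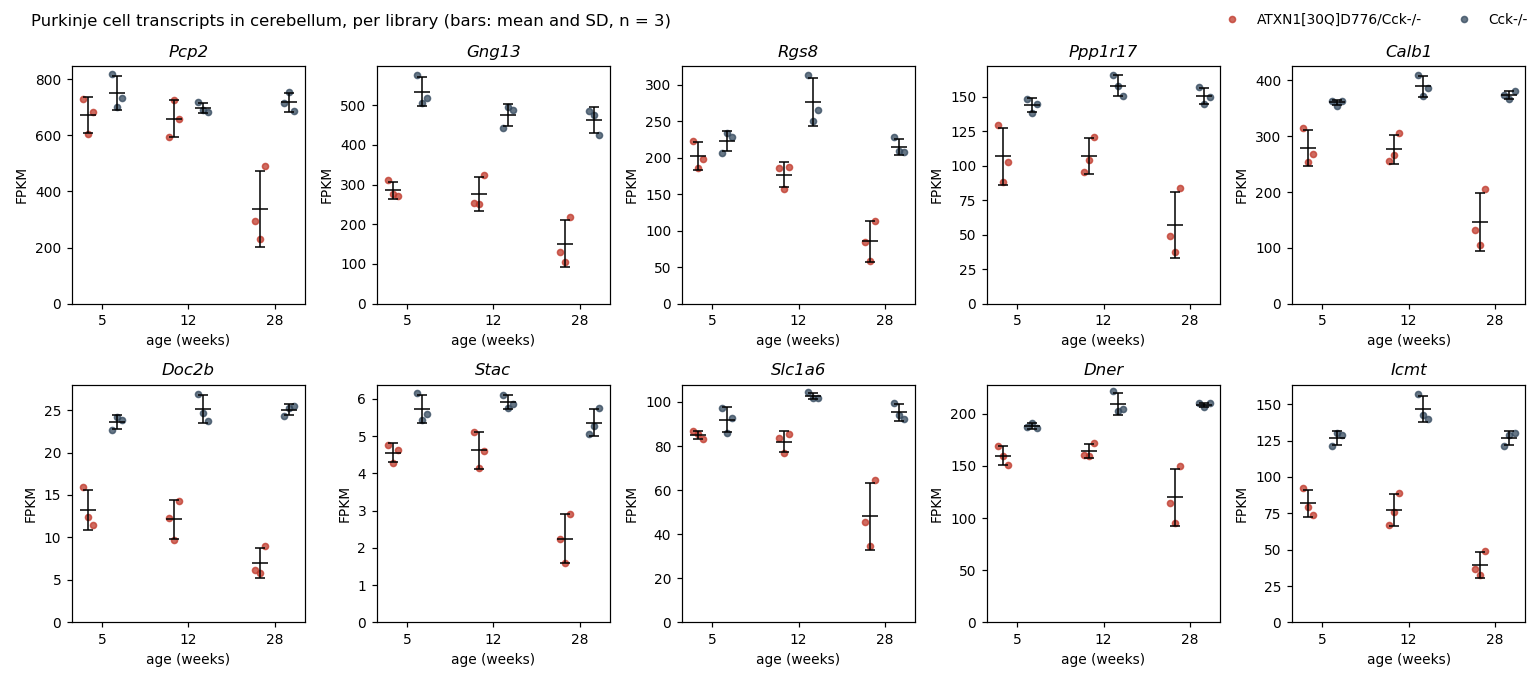
Level of the 10 Purkinje cell transcripts in every library (FPKM, linear axes from 0) against age in weeks; points are libraries, bars are the mean and SD of 3. In each panel the 3 transgenic libraries of week 28 lie below the other 15.

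All 10 transcripts were lower in transgenic than in Cck-/- cerebella at week 28, and the 3 transgenic libraries of that age were the lowest of the 18 for each of them. Gng13, Doc2b and Icmt were lower at week 5 and week 12 as well, while the other 7, Pcp2 among them, did not pass the test at those ages. Between weeks 12 and 28 every transcript fell in transgenic cerebella, and none was called in Cck-/- cerebella. The direct test of whether this change differed between genotypes called 0 of the 10 and 0 of all genes. Unadjusted p of the 10 in that test were at most 0.00737 by limma. The summed level of the 10 was 1891 ± 168, 1836 ± 124 and 996 ± 350 FPKM in transgenic cerebella of weeks 5, 12 and 28, against 2448 ± 88.6, 2487 ± 70.7 and 2380 ± 58.6 FPKM in Cck-/- cerebella (mean ± SD, n = 3 each).

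Differences were tested with limma on log2(FPKM + 1), on all 13487 genes that reached 1 FPKM in at least 3 libraries, and a gene was called at a Benjamini-Hochberg adjusted p under 0.05. All 10 transcripts passed the filter. By limma, 3 of the 10 were called lower at week 5, where 4.37% of all tested genes were called lower. The count was again 3 at week 12, against 1.08% of all genes, and 10 at week 28, against 6.13%. None was called higher at any age, where 3.3%, 0.282% and 4.54% of all genes were. Each gene had 1 spread estimate over all 6 groups, so the wide spread of the 10 in transgenic week 28 libraries enters the tests of younger ages. With only the groups compared fitted, 6 of the 10 were called at week 5 and 3 at week 12 (1152 and 63 of all genes). At an unadjusted p under 0.05 stood 7 of the 10 at week 5, against 22.3% of all genes, and 9 at week 12, against 12%. Transgenic libraries all lay below Cck-/- libraries for 7 transcripts at week 5 (16% of all genes), 9 at week 12 (8.74%) and 10 at week 28 (12.9%). Median log2 fold changes over the 10 were -0.33, -0.53 and -1.38 at weeks 5, 12 and 28, beside medians over all genes of 0.0003, 0.0023 and 0.0046. Nothing in the labels states that each library is its own animal, so p-values measure the spread between these libraries, which may be technical.

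Pcp2, Gng13 and Rgs8 act on G proteins. Pcp2 encodes a GoLoco protein that modulates Gi and Go proteins, on chromosome 8 from 3621551 to 3625545 (mm10, minus strand). In transgenic cerebella it held 731, 605 and 685 FPKM at week 5, 596, 726 and 658 at week 12, and 293, 232 and 490.2 at week 28. In Cck-/- cerebella it held 817, 702 and 734 FPKM at week 5, 719.9, 689.7 and 684 at week 12, and 714, 753 and 686 at week 28. The genotypes overlapped at weeks 5 and 12, and at week 28 all transgenic libraries were lower, with replicate 3 well above the other two. The log2 fold change of Pcp2 at week 28 was -1.15, with an SE of 0.18 and an adjusted p of 0.000769 by limma, and it retained 47.1% of its Cck-/- mean. At week 12 its difference was -0.08 (95% interval -0.47 to 0.30, adjusted p = 0.923, limma), and at week 5 it was -0.16 (interval -0.55 to 0.23, adjusted p = 0.673, limma). Its exons overlap those of Pet100 on the opposite strand by up to 865 bases, and whether the counting used strand is not stated. Pet100 lay between 9.94 and 16.1 FPKM in all libraries. At week 28 it was lower without overlap, as Pcp2 was, with 9.94 to 13.5 FPKM in transgenic and 15.8 to 16.1 FPKM in Cck-/- libraries. The part of shared reads in this was not tested. Exons of Gng13 and Icmt overlap those of Chtf18 and Rnf207 on the opposite strand, and these stayed at or below 0.968 and 0.499 FPKM.

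Gng13 encodes a G protein gamma subunit (chromosome 17, 25717172 to 25727415, plus strand). It held 311, 276 and 271 FPKM in transgenic cerebella at week 5, 252, 252 and 325 at week 12, and 131, 105 and 217 at week 28. Cck-/- cerebella held 575, 506 and 519 FPKM at week 5, 443, 494 and 488 at week 12, and 485, 476 and 425 at week 28. Here the genotypes were apart at every age, and no transgenic library reached the lowest Cck-/- library. Gng13 changed by -0.90 at week 5 (SE 0.18, adjusted p = 0.00796, limma), by -0.79 at week 12 (SE 0.18, adjusted p = 0.0476, limma) and by -1.67 at week 28 (SE 0.18, adjusted p = 3.14e-05, limma). The week 12 call was lost in 9 of 18 alternative fits, with adjusted p of up to 0.290 by limma, among them those without transgenic replicate 1 or 2 or any 1 of the Cck-/- libraries (0.115 to 0.226).

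Rgs8 encodes a regulator of G protein signalling that speeds GTP hydrolysis by G alpha subunits (chromosome 1, 153653037 to 153697665, plus strand). Transgenic cerebella held 223, 186 and 198 FPKM at week 5, 186, 158 and 187 at week 12, and 84.5, 58.3 and 114 at week 28. In Cck-/- cerebella the values were 207, 233 and 229 FPKM at week 5, 313, 249.8 and 265 at week 12, and 228, 209 and 207 at week 28. The genotypes overlapped at week 5, were apart at week 12, when Cck-/- libraries stood at their highest, and were farther apart at week 28. The differences were -0.14 at week 5 (adjusted p = 0.685, limma), -0.64 at week 12 (SE 0.17, adjusted p = 0.0796, limma) and -1.37 at week 28 (SE 0.17, adjusted p = 8.55e-05, limma).

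Other genes of the same families did not move in this way. Of 10 other gamma subunit genes tested, 0 were lower and 1, Gngt2, was higher at week 28 (0.42, adjusted p = 0.0485, limma), with a list median of 0.04. Gng3, an abundant neuronal gamma subunit, averaged 61.9 FPKM in transgenic and 62.6 FPKM in Cck-/- cerebella at that age (log2 fold change -0.01, adjusted p = 0.944, limma) and is named after its values were seen. Of 14 other RGS genes tested, 0 were lower and Rgs20 was higher at week 28 (0.33, adjusted p = 0.00912, limma); at week 5 Rgs5, a pericyte gene, was lower (-0.78, adjusted p = 0.0217, limma). Of 5 other genes with GoLoco motifs tested, 0 were called at any age by limma, and 0, 0 and 1 had an unadjusted p under 0.05 at weeks 5, 12 and 28.

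Icmt encodes the enzyme that methylates the prenylated cysteine of proteins such as G protein gamma subunits and Ras relatives (chromosome 4, 152297214 to 152318625, plus strand). It held 92.3, 79.4 and 74.0 FPKM in transgenic cerebella at week 5, 66.9, 76.2 and 88.7 at week 12, and 36.8, 32.5 and 49.2 at week 28. In Cck-/- cerebella it held 121, 130.0 and 129 FPKM at week 5, 157, 143 and 140.1 at week 12, and 121, 129 and 130.1 at week 28. Transgenic libraries were below Cck-/- libraries at each age with no overlap. Icmt changed by -0.63 at week 5 (SE 0.13, adjusted p = 0.00707, limma), by -0.92 at week 12 (SE 0.13, adjusted p = 0.00137, limma) and by -1.68 at week 28 (SE 0.13, adjusted p = 1.99e-06, limma). Of 8 other enzymes of protein prenylation and its later steps, among them Rce1 and Zmpste24, which cut the protein before Icmt acts, 0 were called at any age by limma. Their median log2 fold change at week 28 was -0.04, and 1, 0 and 1 of the 8 had an unadjusted p under 0.05 at weeks 5, 12 and 28.

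Doc2b encodes a calcium sensor of spontaneous vesicle release (chromosome 11, 75769090 to 75796057, minus strand). It was a low message, with 15.9, 12.4 and 11.4 FPKM in transgenic cerebella at week 5, 12.3, 9.69 and 14.3 at week 12, and 6.22, 5.80 and 8.97 at week 28. Cck-/- cerebella held 22.7, 24.2 and 23.9 FPKM at week 5, 26.9, 24.6 and 23.7 at week 12, and 24.3, 25.3 and 25.5 at week 28. All transgenic libraries were lower at each age, and at week 28 Doc2b retained 28.0% of its Cck-/- mean, the lowest share of the 10. It changed by -0.80 at week 5 (SE 0.14, adjusted p = 0.00340, limma), by -1.01 at week 12 (SE 0.14, adjusted p = 0.00182, limma) and by -1.72 at week 28 (SE 0.14, adjusted p = 5.48e-06, limma). Doc2b and Icmt kept their calls at all 3 ages in each of the 18 alternative fits, and Gng13 kept its calls at weeks 5 and 28.

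Calb1 encodes calbindin, the calcium buffer used as a histological marker of Purkinje cells (chromosome 4, 15881264 to 15906709, plus strand). Transgenic cerebella held 314, 253 and 268 FPKM at week 5, 256, 267 and 306 at week 12, and 131, 104 and 205 at week 28. Cck-/- cerebella held 364, 355 and 364 FPKM at week 5, 410.4, 373 and 386 at week 12, and 375, 366 and 381 at week 28. The libraries of the genotypes did not overlap at any age, yet only the difference of week 28 passed the test (-1.40, SE 0.16, adjusted p = 5.49e-05, limma). The SE came from a spread shared by all groups and was the same at each age. The SD of transgenic libraries was 51.9 FPKM at week 28, against 31.9 FPKM at week 5 and 26.6 FPKM at week 12. The differences at weeks 5 and 12 were -0.38 (interval -0.73 to -0.03, adjusted p = 0.183, limma) and -0.50 (interval -0.85 to -0.15, adjusted p = 0.186, limma).

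Stac, which encodes an adaptor of L-type calcium channels, was the lowest of the messages (chromosome 9, 111561434 to 111690216, minus strand). Over weeks 5 and 12 it lay between 4.14 and 5.11 FPKM in transgenic cerebella, against 5.42 to 6.16 FPKM in Cck-/- cerebella. At week 28 it held 2.24, 1.6 and 2.90 FPKM in transgenic cerebella, against 5.05, 5.28 and 5.76 FPKM in Cck-/- cerebella. The genotypes were apart at each age, and the difference of week 28 was -0.99 (SE 0.11, adjusted p = 3.23e-05, limma), a value that the added 1 FPKM shrinks for so low a message; the means at that age stood at 41.9%. Of 4 relatives of Calb1, Doc2b and Stac tested, 0 were called at week 28 by limma, with 0 at an unadjusted p under 0.05; Calb2, the calretinin gene of granule and unipolar brush cells, was lower at week 5 (-0.62, adjusted p = 0.0392, limma).

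Ppp1r17 encodes G-substrate, a target of cGMP-dependent protein kinase that inhibits protein phosphatases (chromosome 6, 56017515 to 56032688, plus strand). It held 49.3, 37.5 and 83.8 FPKM in transgenic cerebella at week 28, against 157, 145 and 149.5 FPKM in Cck-/- cerebella. At the earlier ages it ranged from 88.2 to 129 FPKM in transgenic and from 138 to 166 FPKM in Cck-/- cerebella, again with no overlap. It changed by -1.47 at week 28 (SE 0.20, adjusted p = 0.000225, limma), and the differences of -0.44 at week 5 and -0.57 at week 12 were not called (adjusted p = 0.209 and 0.234, limma).

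Slc1a6 encodes EAAT4, the glutamate transporter of Purkinje cell spines (chromosome 10, 78780496 to 78814825, plus strand). At week 28 it held 45.4, 34.6 and 64.5 FPKM in transgenic cerebella, against 99.7, 94.2 and 92.2 FPKM in Cck-/- cerebella, a change of -1.02 (SE 0.14, adjusted p = 0.000229, limma). At week 5 the genotypes overlapped, with 83.3 to 86.9 FPKM in transgenic and 86.1 to 97.1 FPKM in Cck-/- cerebella, and at week 12 they were apart, with 76.7 to 85.6 against 102 to 104 FPKM. Neither earlier difference was called (-0.11 and -0.32, adjusted p = 0.714 and 0.368, limma). Of 5 other transporter genes of its family, 1 was called at week 28: Slc1a3, the transporter of Bergmann glia, was lower (-0.72, adjusted p = 0.00145, limma).

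Dner encodes a Notch-like transmembrane ligand through which Purkinje cells act on Bergmann glia (chromosome 1, 84369839 to 84696221, minus strand). It held 169, 159.6 and 151 FPKM in transgenic cerebella at week 5, 160.3, 159.8 and 172 at week 12, and 114, 95.4 and 149.8 at week 28. Cck-/- cerebella held 187, 191 and 186 FPKM at week 5, 222, 202 and 205 at week 12, and 210.0, 207 and 209.8 at week 28. All transgenic libraries were lower at each age, but transgenic week 28 replicate 3 nearly reached the younger transgenic libraries. Dner had the smallest change of the 10 at week 28 (-0.82, SE 0.11, adjusted p = 0.000151, limma) and retained 57.4% of its Cck-/- mean. At weeks 5 and 12 the differences were -0.24 and -0.35 (adjusted p = 0.207 and 0.146, limma). Of 13 Notch pathway genes tested, 3 were higher at week 28, the ligand gene Dll1 (0.37), the receptor gene Notch1 (0.38) and the target gene Hey1 (0.30), and 1, Dtx1, was lower (-0.24; adjusted p from 0.00286 to 0.0487, limma).

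**Figure D2:**
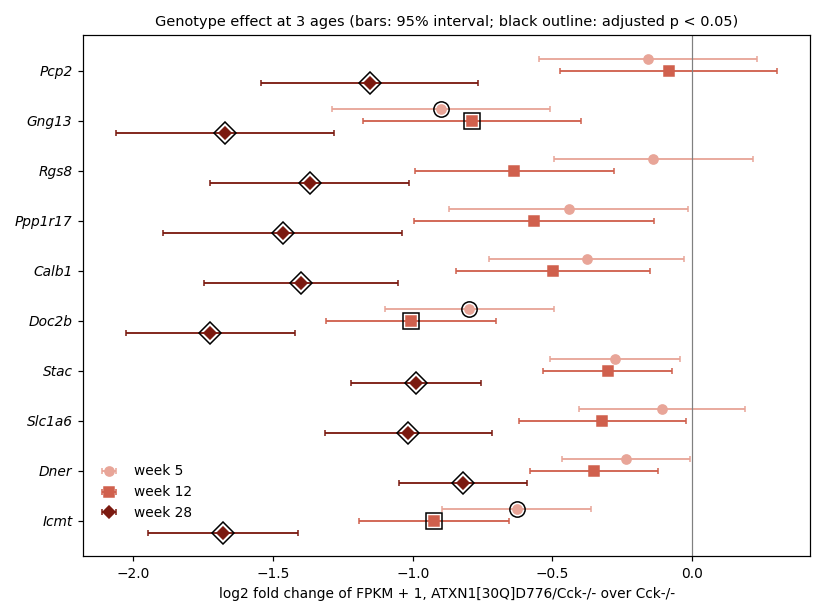
Genotype effect on each transcript at 3 ages (log2 fold change of FPKM + 1, transgenic over Cck-/-, with 95% intervals from limma); a black outline marks an adjusted p under 0.05. The week 28 effects run from -1.72 for Doc2b to -0.82 for Dner, and outlined effects at weeks 5 and 12 belong to Gng13, Doc2b and Icmt.

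Whether the genotype effect differs between ages was tested by interactions. The effect at week 28 was more negative than at week 5 for 8 of the 10 by limma, against 1.92% of all genes called in that direction. These 8 were Rgs8 (-1.23, SE 0.24), Icmt (-1.05), Calb1 (-1.02), Pcp2 (-1.0), Doc2b (-0.93), Slc1a6 (-0.91), Stac (-0.71) and Dner (-0.58), with adjusted p from 0.00835 to 0.0459. Ppp1r17 (-1.02, adjusted p = 0.0605, limma) and Gng13 (-0.77, adjusted p = 0.111, limma) were not called. The week 5 side of this contrast includes the libraries with 98.1 FPKM of Cck. The count was 0 without the 3 libraries that held both Xist and Y-linked transcripts, and 10 without transgenic week 28 replicate 3. Those fits called 65 and 1058 of all genes in either direction, against 492 in the main fit. Leaving out any other single library of the 4 groups gave 2 to 6. Rgs8 and Icmt were called in 23 of 24 alternative fits, and Pcp2 and Dner in 8 of 24. Apart from Rgs8 and Icmt, which of the 10 pass thus rests on single libraries. Between weeks 28 and 12, limma called 0 of all genes (0%), with 1365 genes, 10.1%, and all 10 transcripts at an unadjusted p under 0.05; their differences ran from -1.07 for Pcp2 to -0.47 for Dner (adjusted p from 0.384 to 0.406). Without transgenic week 28 replicate 3 all 10 passed in that contrast, beside 149 of all genes. Between weeks 12 and 5, 0 of the 10 were called by limma (0.667% of all genes), and 0 had an unadjusted p under 0.05 (12.1% of all genes).

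Age was then followed within each genotype. Between weeks 12 and 28 all 10 transcripts fell in transgenic cerebella by limma, against 13.7% of all genes called lower, with week 28 libraries all below week 12 libraries for each, as for 19.8% of all genes. The changes ran from -1.09 for Rgs8 (SE 0.17, adjusted p = 0.000727, limma) and -1.03 for Pcp2 to -0.47 for Dner (SE 0.11, adjusted p = 0.00648, limma), with a median of -0.94. When the 2 transgenic groups were fitted alone, 5 of the 10 passed, beside 1368 of all genes in either direction. In Cck-/- cerebella 0 of the 10 were called over the same interval (9.65% of all genes in either direction) and 0 had an unadjusted p under 0.05 (26.3% of all genes); Rgs8 was nearest, at -0.36 (adjusted p = 0.190, limma). From week 5 to week 12, 0 of the 10 were called by limma in transgenic cerebella (1.19% of all genes) and 0 in Cck-/- cerebella (11.8%), with 0 at an unadjusted p under 0.05 in either (13.5% and 25.5% of all genes). Some transcripts were nonetheless apart between ages in Cck-/- cerebella. From week 5 to 12, Calb1, Ppp1r17, Slc1a6, Rgs8, Dner and Icmt were higher and Gng13 was lower without overlap. From week 12 to 28, Slc1a6, Rgs8 and Icmt were lower without overlap. The share of all genes apart in this way is not given here. Ordering the 6 groups by mean level put the 3 Cck-/- groups above the 3 transgenic groups for all 10 transcripts, an order found in 5.57% of all tested genes. The highest group was Cck-/- week 12 for 8 of them (12.3% of all genes) and Cck-/- week 5 for Pcp2 and Gng13 (24.5%). The lowest Cck-/- group and the highest transgenic group overlapped for 4 transcripts, Pcp2, Rgs8, Slc1a6 and Stac; 4.26% of all genes had this order with such an overlap. Transgenic weeks 5 and 12 overlapped for all 10, as for 82.3% of all genes, and transgenic week 28 lay below every other group with no overlap for all 10, as for 5.4%.

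For the 10 transcripts, transgenic libraries of week 28 varied more than the others. The coefficient of variation ran from 22.0% to 42.3% there, with a median of 32.0%, against 0.93% to 7.0% in Cck-/- libraries of the same age. In transgenic libraries of weeks 5 and 12 it reached 19.5% and 19.2%, with medians of 9.38% and 10.2%. The mean log2 level of 20 other Purkinje cell genes had an SD of 0.300 in transgenic and 0.0257 in Cck-/- libraries of week 28. The variation over all genes was not computed. Replicate 2 was the lowest, replicate 1 the middle and replicate 3 the highest for all 10 transcripts, an order held by 22.7% of all tested genes. The highest of the 3 was still below the lowest of the other 15 libraries for each of the 10, against 5.4% of all genes; for Dner the margin was narrow, with 149.8 against 151 FPKM. Replicate 3 is also one of the libraries low in choroid plexus markers. Without it all 10 were called by limma, beside 1983 of all genes in either direction. The week 28 difference of Pcp2 was then -1.46 and that of Dner -0.99. With week 28 libraries fitted alone, so that their own spread set the errors, 8 of the 10 passed, and Pcp2 and Slc1a6 did not (adjusted p = 0.0730 and 0.0580, limma). That fit called 337 of all genes in either direction.

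The balance among the transcripts was compared by dividing each FPKM, a value already scaled to length, by that of Pcp2 in the same library. Of the 9 ratios, 5 were lower in transgenic than in Cck-/- libraries without overlap at all 3 ages, those of Gng13, Doc2b, Icmt, Calb1 and Ppp1r17, and the other 4 were so at 1 age. Gng13 stood at 42.5 ± 3.05%, 42.1 ± 7.32% and 44.8 ± 0.477% of Pcp2 in transgenic cerebella of weeks 5, 12 and 28, against 71.0 ± 0.954%, 68.2 ± 5.76% and 64.3 ± 3.15% in Cck-/- cerebella (mean ± SD, n = 3 each). This ratio was low in all 9 transgenic libraries, at 34.7% to 49.4%, and stood at a like level at week 28, when both messages were at their lowest. Doc2b stood at 1.97%, 1.86% and 2.15% of Pcp2 in transgenic cerebella of the 3 ages, against 3.16%, 3.59% and 3.49% in Cck-/- cerebella. Icmt showed the same pattern, with 12.2%, 11.7% and 12.2% in transgenic against 17%, 21.0% and 17.7% in Cck-/- cerebella. Calb1 stood at 41.3%, 42.1% and 43.9% in transgenic against 48.2%, 55.9% and 52.2% in Cck-/- cerebella. Ppp1r17 stood at 15.8%, 16.2% and 16.7% in transgenic against 19.2%, 22.6% and 21.0% in Cck-/- cerebella. Gng13, Doc2b, Icmt, Calb1 and Ppp1r17 were thus all low relative to Pcp2 from week 5 on. The ratios of Slc1a6 were 12.7%, 12.5% and 14.5% in transgenic against 12.3%, 14.7% and 13.3% in Cck-/- cerebella. Those of Rgs8 were 30.1%, 27.1% and 25.7% in transgenic against 29.9%, 39.5% and 29.9% in Cck-/- cerebella. Both overlapped between genotypes at weeks 5 and 28 and were lower in transgenic libraries without overlap at week 12, as was Dner. Stac, at 0.678%, 0.709% and 0.683% in transgenic against 0.763%, 0.847% and 0.749% in Cck-/- cerebella, was apart at week 5 and overlapped at weeks 12 and 28. For Dner the ratio was 36.9 ± 5.6% in transgenic and 29.1 ± 1.59% in Cck-/- cerebella at week 28, with overlap between the libraries. These ratios are a description and were not tested, and the share of all genes with such ratios was not computed. Pcp2 itself had small differences between genotypes at weeks 5 and 12 (-0.16 and -0.08, neither called by limma). A transcript that was lower at those ages is therefore low relative to Pcp2 as well.

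**Figure D3:**
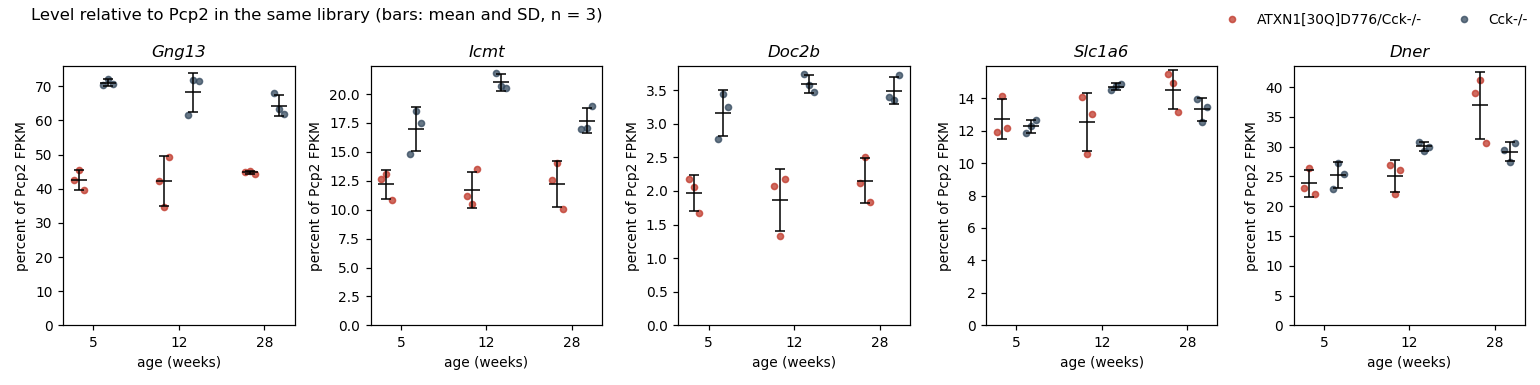
Level of 5 of the 9 other transcripts as a percent of the Pcp2 FPKM of the same library, against age in weeks; points are libraries, bars the mean and SD of 3, and axes start at 0. Gng13, Icmt and Doc2b are lower relative to Pcp2 in transgenic libraries at all 3 ages, Slc1a6 and Dner overlap between genotypes at weeks 5 and 28 and are lower without overlap at week 12, and Dner is highest in 2 transgenic libraries of week 28.

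Beyond the 10, a list of 20 other genes used as Purkinje cell markers gave 8, 8 and 20 lower at weeks 5, 12 and 28 by limma, and 0 higher. Its median log2 fold change at week 28 was -0.99. The smallest p-values belonged to Itpka, an inositol trisphosphate kinase (-1.62), Car8, a regulator of the inositol trisphosphate receptor (-1.99), the scaffold gene Homer3 (-1.34) and the phosphodiesterase gene Pde5a (-1.09). Of 9 transcription factors of Purkinje cells, 2 were lower and 1 higher at week 5, 3 lower at week 12, and 6 lower at week 28, where Ebf2 changed by -0.86, Skor2 by -1.22, Foxp4 by -0.59 and Lhx1 by -0.63. Rora, the gene of the receptor that binds AGGTCA, was lower at week 28 (-0.45, adjusted p = 0.0111, limma) and is named after its values were seen. Esrrb, a nuclear receptor, was the factor that was higher at week 5 (0.29, adjusted p = 0.0483, limma).

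Markers of other cell types were read beside these results. At week 28, 5 of 9 microglia markers were higher, with a summed level of 173 to 256 FPKM in transgenic against 114 to 168 FPKM in Cck-/- cerebella. Among Bergmann glia and astrocyte markers 3 of 9 were higher, the astrocyte genes Gfap (1.45), Aqp4 (1.04) and Gja1 (0.73), and 4 were lower, Slc1a3 among them; their sums were 1143 to 1217 against 979 to 1231 FPKM. Of 8 oligodendrocyte markers 2 were higher (2854 to 3291 against 2037 to 2664 FPKM), of 10 granule neuron markers 1 was lower (1685 to 1772 against 1471 to 2096 FPKM) and of 9 interneuron markers 1 was lower (176 to 248 against 210.4 to 231 FPKM). Choroid plexus markers summed to 63.1 to 1991 FPKM in transgenic and 1206 to 2707 FPKM in Cck-/- cerebella of week 28, with 0 of 8 called by limma and 0 at an unadjusted p under 0.05. At week 5, 5 of 8 oligodendrocyte markers were lower (3993 to 4105 against 5009 to 6056 FPKM), and 5 of 9 interneuron markers were higher and 1 lower (189 to 217 against 156 to 167 FPKM). At week 12, 0 genes of the microglia, astrocyte, oligodendrocyte, granule neuron and interneuron lists were called by limma, beside 5, 1, 3, 0 and 5 at an unadjusted p under 0.05. The part of these cell types in the values of the 10 transcripts was not tested.

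**Figure D4:**
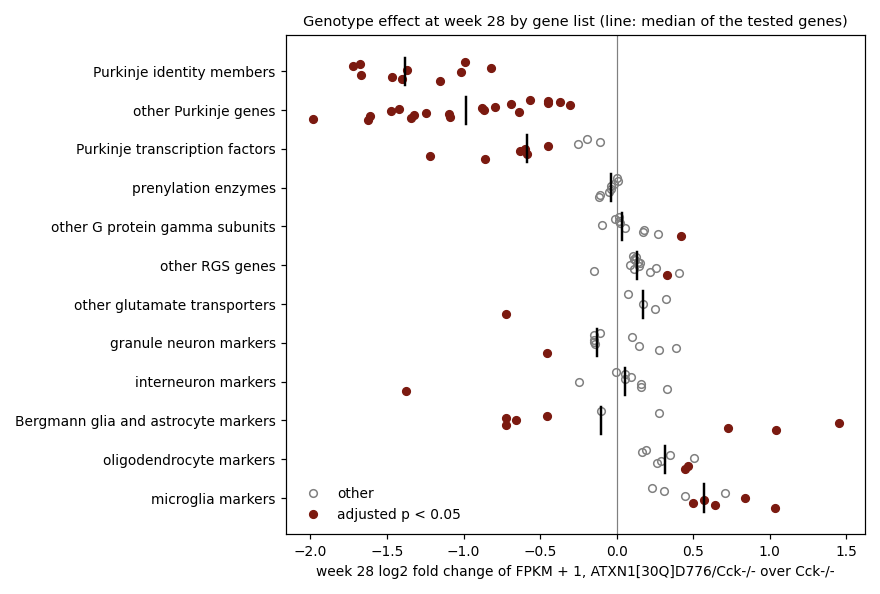
Genotype effect at week 28 for the 10 transcripts and for lists of related genes and cell type markers (log2 fold change of FPKM + 1, transgenic over Cck-/-); each point is a gene, filled where the adjusted p by limma is under 0.05, and the black line is the median. The 3 Purkinje cell lists have medians of -1.38, -0.99 and -0.59, and the prenylation enzyme list has one of -0.04.

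Likeness of pattern was measured over the 6 group means, as log2 values centred on their mean, by the root mean square difference from the median profile of the 10. Of 9841 other tested genes with a mean of at least 5 FPKM, those nearest included the scaffold gene Homer3 (0.047), Kitl, the ligand of the Kit receptor on interneurons (0.056), and Inpp5a, an inositol phosphatase (0.072). Hes3 (0.086), Sbk1 (0.093), B3gnt5 (0.11) and Arhgef33 (0.12) followed. Homer3 averaged 82.1, 84.5 and 46.3 FPKM in transgenic cerebella of weeks 5, 12 and 28, against 116, 127 and 116 FPKM in Cck-/- cerebella. By the same measure Calb1 was the closest of the 10 to their own median (0.025) and Dner (0.228) and Doc2b (0.225) the farthest. The genes nearest to Pcp2 alone were Tuba8, a tubulin gene (0.103), Pcp4, a calmodulin regulator (0.105), and Hpcal1, a calcium sensor (0.122).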

How the data were processed

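RNA of whole cerebella was extracted with TRIzol and sequenced as 18 TruSeq libraries, per the labels. The deposited values are FPKM per gene symbol, made by the authors with TopHat2 2.0.11 and Cufflinks 2.2.1 on mm10, per the submitters' processing notes; for annotation, read filters, strand setting and Cuffnorm scaling, the answer is not given in the sources used here. Interval columns, as deposited, equal each other in 100% of values and the FPKM in 99.8%, and were not used. Of 22783 genes, 2608 were 0 in all libraries.

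From the deposited FPKM, log2 values after adding 1 were computed. Genes of at least 1 FPKM in at least 3 libraries (13487) entered a fit by limma 3.58.1 (R 4.3.3) of 1 mean per group, with a mean-variance trend and 12 residual degrees of freedom, for 10 comparisons. P-values are two-sided and adjusted over all tested genes within a comparison; intervals are 95%. The members and lists were chosen with earlier results of these data known. Named genes are the 10 members, Cck and Atxn1 as checks, up to 4 called genes of smallest p per described list, and the 8 genes nearest to the members' median profile and 3 nearest to Pcp2; others are marked where named, and 1 gene that the rule names is not reported here. Promoter sequences came from RefSeq (GRCm38.p6) and exon overlaps from GENCODE M21, in which 21521 symbols were found. Data were simulated for 13487 genes from each gene's mean over all 18 libraries and 1 spread per gene, pooled over the 6 groups. A change was then added to the transgenic week 28 libraries alone. For the week 28 contrast, limma called 84% of genes changed by 0.5 and 99% of those changed by 1 (log2), and 7 of 13287 unchanged genes. The wider spread of transgenic week 28 libraries was not simulated, so recovery and false calls there may differ. Alternatives covered the pseudocount, filters, scaling, trend, library weights, replicate numbers as blocks, fits of the compared groups only and left-out libraries. The tables and figures were made with the packages pandas 2.3.3, numpy 2.4.6 and matplotlib 3.10.9 under Python 3.11.15.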

Additional observations from a re-analysis of the deposited data

Results flagged for a closer look

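The genotype effect differed between week 28 and week 5 for 8 of the 10 transcripts by the interaction test of limma, where 1.92% of all genes were called in that direction: Pcp2 (-1.0), Calb1 (-1.02), Slc1a6 (-0.91), Rgs8 (-1.23), Dner (-0.58), Doc2b (-0.93), Icmt (-1.05) and Stac (-0.71), each the week 28 effect minus the week 5 effect on the log2 scale. Adjusted p ran from 0.00835 to 0.0459, and all 3 transgenic libraries of week 28 were below all Cck-/- libraries of that age for each of the 8, as for 12.9% of all genes. With the replicate number as a block Pcp2 was not called (adjusted p = 0.0512, limma). Over 24 alternative fits, Rgs8 and Icmt were called in 23, and Pcp2 and Dner in 8. Transgenic cerebella of week 5, on one side of this contrast, held 98.1 FPKM of Cck, and the part of that in the difference was not tested.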

How the results depend on the processing

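Where given in brackets below, a number is the count of all genes called in either direction in the same fit. The week 28 count of 10 transcripts (1439) was kept in each of the 18 alternatives except 2. It was 8 when only the groups compared were fitted (337), and 9 with a mean FPKM of at least 5 (1169), a filter that removes Stac. At week 5 the count of 3 (1035) became 7 with library weights (3112) and 6 with only the groups compared (1152). At week 12 the count of 3 became 7 without the 3 libraries low in choroid plexus markers, and was 2 to 3 without single libraries. The interaction of weeks 28 and 12, with 0 called, gave 10 with library weights and 10 without the 3 low-choroid libraries, and 0 to 10 without single libraries, the 10 coming without transgenic week 28 replicate 3. In that contrast 2344 of all genes were called with library weights, and 149 without transgenic week 28 replicate 3. The interaction of weeks 28 and 5, with 8 called (492), gave 3 with only the groups compared (189). It gave 0 without the 3 libraries holding Xist and Y-linked transcripts (65), which were chosen after seeing the data. Without single libraries it gave 2 to 10 (120 to 1058). From week 12 to 28 in transgenic cerebella, 10 (3216) became 5 with only the groups compared (1368). In Cck-/- cerebella, 0 became 1 from week 5 to 12 with only the groups compared (1715), namely Icmt, higher. From week 12 to 28, 0 became 1 with library weights (4244), namely Rgs8, lower. The causes were not tested. No called fold change of the 10 changed sign.

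Over all genes the counts ran, across alternatives, from 309 to 3112 at week 5 (1035 as reported), 59 to 323 at week 12 (183), 337 to 5835 at week 28 (1439), 28 to 367 for the interaction of weeks 12 and 5 (90), 0 to 2344 for that of weeks 28 and 12 (0) and 65 to 4325 for that of weeks 28 and 5 (492). For age they ran from 28 to 221 (161) and 984 to 5128 (3216) in transgenic, and from 955 to 3907 (1595) and 140 to 4244 (1301) in Cck-/- cerebella.

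Whether replicate numbers pair the samples was not settled. Correlations of deviations of same-numbered libraries ran from -0.16 to 0.435, and they were not compared with those of differently numbered libraries. With the replicate number as a block the counts of the 10 were 3, 3 and 10 at weeks 5, 12 and 28, as without it, 0, 0 and 8 for the interactions of weeks 12 and 5, 28 and 12, and 28 and 5, and 0, 10, 0 and 0 for the age changes. The 8 were not the same transcripts: with the block, in the interaction of weeks 28 and 5, Pcp2 lost its call (adjusted p = 0.0512, limma) and Ppp1r17 gained one (adjusted p = 0.0498, limma). Depth is unknown, so no limit of detection is given for Stac or other low messages.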
